A study of Mus musculus with 5 samples.

Results

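The annexins are proteins that bind phospholipid membranes when calcium is present. They share a core of repeated calcium-binding domains and differ in their N-terminal regions, through which several of them bind small EF-hand proteins such as those of the S100 family. They are known for joining, bending and resealing membranes, for a role in inflammation (annexin A1), for binding plasminogen and its activator at the cell surface (annexin A2), and for binding exposed phosphatidylserine (annexin A5). The members described here are the 8 genes Anxa1, Anxa2, Anxa3, Anxa4, Anxa5, Anxa6, Anxa7 and Anxa11. They were chosen by name, through the RefSeq accession that each probe of the array carries. They are 8 of 21149 genes named on the array and 8 of 16888 that were tested.

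RNA of 3 mouse gliomas and 2 normal mouse brains, each taken at postnatal day 150, was measured as total RNA on Agilent arrays of a single colour, with 1 array for each sample. The gliomas come from a model based on MADM (mosaic analysis with double markers), where exchange between chromosomes at cell division gives sparse marked mutant cells. The labels name no mutated gene, Cre driver or strain for the gliomas, and describe the normal samples only as normal brain. They number the replicates and do not say whether these came from separate animals, so every p-value below measures the spread between these samples, which may be technical.

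Between 61.5% and 70.3% of the spots on an array were well above background, and no spot was saturated. A level is the log2 of the processed signal minus the 75th percentile of its array, and a change is the mean level of the 3 gliomas minus that of the 2 normal brains. Levels were strongly correlated across probes within each group (r of 0.974 to 0.982 among gliomas and 0.996 between the normal brains) and less so between groups (0.857 to 0.874). All arrays shared 1 slide with gliomas in one row and normal brains in the next, so that row and group cannot be told apart. Markers of oligodendrocyte progenitors (5 of 5 genes) and of dividing cells (4 of 4) were higher in glioma, and markers of neurons (5 of 5), oligodendrocytes (5 of 5), endothelium (7 of 7), ependyma (5 of 5) and choroid plexus (5 of 5) were lower. Of 6 astrocyte markers, 2 were lower and 4 were not called (median change -0.49). In whole tissue, fewer cells of a type and less RNA per cell cannot be told apart.

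The stretch of 250 bases before the RefSeq start is given to compare the annexin promoters in sequence. It is shown, from RefSeq on build GRCm38.p6, for the 4 members that fell in glioma and for Anxa2, which did not pass the test. RefSeq promoters matched 6 of the 8 members. Capitals mark matches on either strand to 3 motifs that do not overlap here, chosen after the sequences were seen. The first motif is TATAAA, the core of a TATA box. A second is GGGCGG, the GC box, whose copies on the other strand read as its reverse complement. The last is TGANTCA, the form bound by AP-1.
Anxa1: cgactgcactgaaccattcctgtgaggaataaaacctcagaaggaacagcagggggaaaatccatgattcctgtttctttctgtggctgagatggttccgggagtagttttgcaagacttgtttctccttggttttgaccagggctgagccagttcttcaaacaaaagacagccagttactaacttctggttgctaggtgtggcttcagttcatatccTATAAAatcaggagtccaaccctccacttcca
Anxa5: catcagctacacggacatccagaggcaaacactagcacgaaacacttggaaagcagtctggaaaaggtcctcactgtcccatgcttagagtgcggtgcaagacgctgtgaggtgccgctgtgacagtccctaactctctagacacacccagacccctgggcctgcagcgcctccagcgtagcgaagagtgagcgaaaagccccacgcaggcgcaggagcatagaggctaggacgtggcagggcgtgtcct
Anxa7: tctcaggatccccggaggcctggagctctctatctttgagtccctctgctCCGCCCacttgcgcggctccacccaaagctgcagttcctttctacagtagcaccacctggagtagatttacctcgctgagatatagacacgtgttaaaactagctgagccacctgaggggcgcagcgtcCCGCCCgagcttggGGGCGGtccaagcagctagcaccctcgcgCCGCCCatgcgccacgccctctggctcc
Anxa11: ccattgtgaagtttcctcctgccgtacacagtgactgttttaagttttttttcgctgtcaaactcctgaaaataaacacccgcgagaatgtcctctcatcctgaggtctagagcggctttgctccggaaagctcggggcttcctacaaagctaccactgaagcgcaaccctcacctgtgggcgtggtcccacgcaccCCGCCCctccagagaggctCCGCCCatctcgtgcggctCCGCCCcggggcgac
Anxa2: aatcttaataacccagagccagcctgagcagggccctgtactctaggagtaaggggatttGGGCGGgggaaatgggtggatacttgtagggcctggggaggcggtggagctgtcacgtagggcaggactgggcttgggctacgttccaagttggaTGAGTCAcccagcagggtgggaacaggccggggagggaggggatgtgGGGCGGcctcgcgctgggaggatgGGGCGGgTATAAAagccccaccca

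The windows lie at chr19:20390672-20390921 on the minus strand for Anxa1, chr3:36475888-36476137 (minus) for Anxa5, chr14:20479942-20480191 (minus) for Anxa7, chr14:25841905-25842154 (plus) for Anxa11 and chr9:69453433-69453682 (plus) for Anxa2. The Anxa1 window held 2 CG dinucleotides and a TATAAA 32 to 27 bases before the start. Among 32817 RefSeq promoter windows of the same length, the median number of CG dinucleotides was 6 and TATAAA occurred in 12.4%. The windows of Anxa7 and Anxa11 held 16 and 17 CG dinucleotides, no TATAAA, and 4 and 3 copies of GGGCGG, a motif found in 32.7% of all windows. The Anxa5 window held 13 CG dinucleotides and none of the 3 motifs. The Anxa2 window held 9 CG dinucleotides, 3 copies of GGGCGG and a TATAAA 17 to 12 bases before the start, nearer to it than that of Anxa1. It also held a TGANTCA, a motif that occurred in 6.75% of windows. RefSeq gives Anxa7 a second start, whose window (chr14:20480134-20480383, minus) held 2 CG dinucleotides, 1 GGGCGG and no TATAAA.

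Of the 8 annexins, 4 were lower in glioma (Anxa11, Anxa1, Anxa5 and Anxa7), none was called higher, and 4 did not pass the test (limma, adjusted p under 0.05 over all genes tested). At an unadjusted p under 0.05 the counts were 4 lower and 1 higher, the latter Anxa4. Differences between these groups were common on the array: 51.5% of all tested genes were called, 27.5% as lower and 24% as higher. The share of annexins called, 4 of 8, is thus close to that of all genes. The median change of the 8 annexins was -0.57 and that of all tested genes -0.04. Levels in the 2 groups did not overlap for Anxa1, Anxa4, Anxa5, Anxa7 and Anxa11, of which Anxa4 was the one higher in glioma. Of all tested genes 74.1% did not overlap, 38.5% as lower and 35.6% as higher. The widest gap between changes of 2 members, among 28 pairs, was that of Anxa11 and Anxa4. They differed by 2.53 on the log2 scale within arrays, a difference that scaling each array by a constant leaves unchanged.

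**Figure D1:**
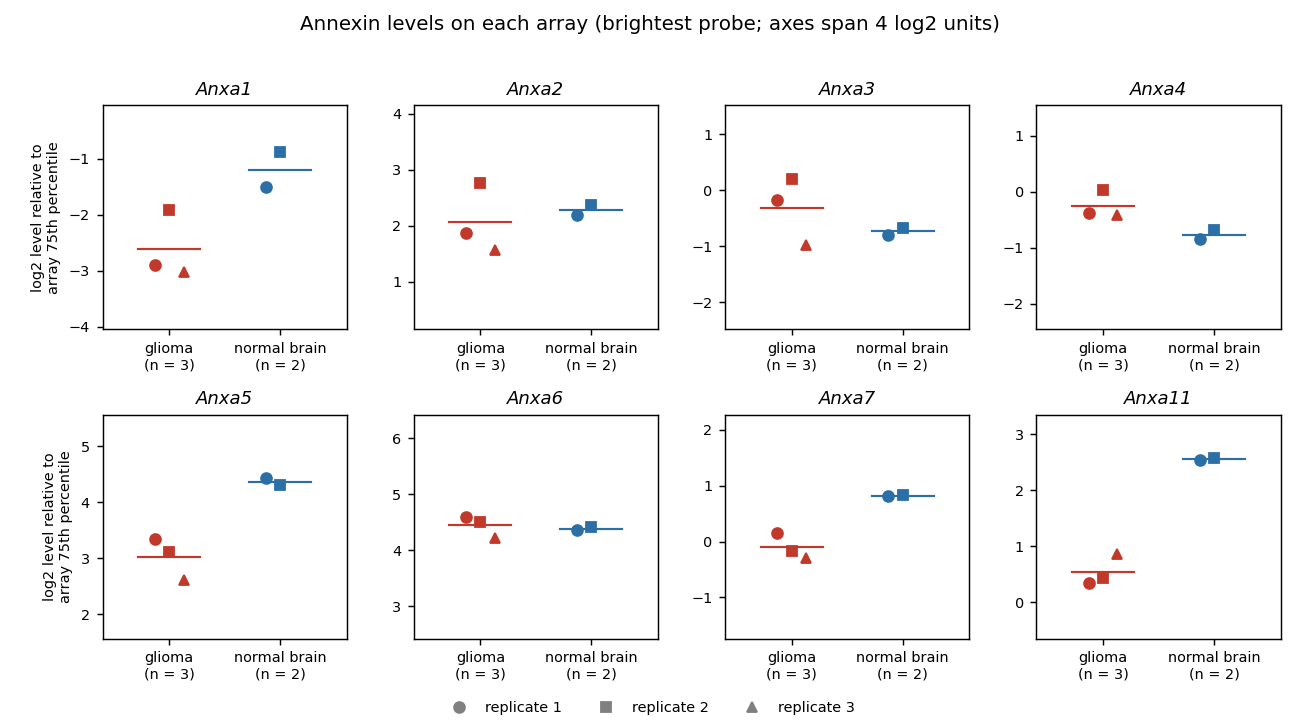
Level of each annexin on every array (log2, relative to the 75th percentile of the array), with gliomas in red, normal brains in blue, the replicate number as the symbol and lines for group means; each axis spans 4 log2 units. The 3 gliomas lie below both normal brains for Anxa1, Anxa5, Anxa7 and Anxa11, above both for Anxa4, and on both sides of them for Anxa2, Anxa3 and Anxa6.

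Anxa11 had the largest change of the family. Its product binds the penta-EF-hand proteins ALG-2 and sorcin and takes part in vesicle traffic and in the transport of RNA granules on lysosomes in neurons. Its level was 0.34, 0.42 and 0.86 in gliomas 1 to 3 and 2.54 and 2.57 in the normal brains. Every glioma lay at least 1.68 below the normal brains, and the 2 normal brains were nearly equal. Anxa11 was 4.04-fold lower in glioma (log2 change -2.01 ± 0.20 SE, 95% interval -2.53 to -1.49, limma adjusted p = 0.00135). A second probe, near the dim end of the array, gave -1.44 ± 0.21 (2.71-fold lower, limma adjusted p = 0.00552 over all probes). Glioma 3, which had the lowest level of the other 7 members, had the highest level of Anxa11. Neuron markers fell with Anxa11 (5 of 5 lower, median change -3.35, summed level 4.89 to 5.37 in glioma and 8.20 to 8.26 in normal brain), and their part in the result was not tested.

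Anxa7, which encodes a protein that also binds ALG-2 and sorcin and fuses secretory membranes, was lower by a smaller amount. Its level was 0.15, -0.17 and -0.30 in the gliomas and 0.81 and 0.83 in the normal brains. Each glioma was below both normal brains, and the change was -0.93 ± 0.18 SE (1.90-fold lower, 95% interval -1.39 to -0.46, limma adjusted p = 0.0109). The second probe of the gene read -0.89, -1.18 and -1.11 in the gliomas and 0.74 and 0.68 in the normal brains. It gave a change of -1.77 ± 0.16 (3.41-fold lower, limma adjusted p = 0.00155 over all probes), about 0.84 on the log2 scale beyond that of the brighter probe. The gap between the probes was 0.82 to 1.04 in gliomas and 0.08 to 0.15 in normal brains, without overlap, so the size of the Anxa7 change differs between probes while its direction does not. The call was lost without either normal brain (adjusted p 0.0812 and 0.0832 in limma), with changes of -0.93 and -0.92, and on unscaled values (-0.58, adjusted p 0.0648).

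Anxa5 encodes the abundant annexin that binds phosphatidylserine on the outer face of dying or activated cells and forms an ordered lattice on membranes. The processed signal was 8004, 7851 and 4651 in gliomas 1 to 3 and 13731 and 12727 in the normal brains, which corresponds to levels of 3.35, 3.12 and 2.62 against 4.44 and 4.31. All 3 gliomas were below both normal brains, and glioma 3 was the lowest. The change was -1.34 ± 0.25 SE (2.53-fold lower, 95% interval -1.98 to -0.70, limma adjusted p = 0.00923). Without normal brain 1 it was -1.27 and without normal brain 2 it was -1.41, with limma adjusted p of 0.0681 and 0.0546. Endothelial markers fell with Anxa5 (7 of 7 lower, median change -1.86, summed level 3.06 to 3.21 in glioma and 4.46 to 4.70 in normal brain), and so did markers of the choroid plexus (5 of 5, median change -7.59, summed level -1.77 to -1.31 and 8.13 to 8.15). Their part in the result was not tested. Of the choroid plexus markers, Ttr was well above background on 2 of 3 gliomas and Kcne2 on 1.

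Anxa1 encodes the glucocorticoid-induced annexin that acts through formyl peptide receptors to limit inflammation. Its level was -2.91, -1.92 and -3.03 in gliomas 1 to 3 and -1.51 and -0.89 in the normal brains. The groups did not overlap, yet the gap between glioma 2 and normal brain 1 was only 0.41, less than the spread within either group. Anxa1 was 2.68-fold lower in glioma (log2 change -1.42 ± 0.41 SE, 95% interval -2.47 to -0.37, limma adjusted p = 0.0373). The dimmer probe gave -1.61 ± 0.58 and did not pass the test over all probes (limma adjusted p = 0.0780). It was well above background on glioma 2 and both normal brains only.

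Of the 4 calls, that of Anxa1 was lost in the most alternatives (5 of 13). Without glioma 1, glioma 3, normal brain 1 or normal brain 2 its change was -1.27, -1.21, -1.73 or -1.11, with limma adjusted p of 0.0940, 0.0859, 0.0764 and 0.1865. Without glioma 2 the change was -1.77 and the call was kept (limma adjusted p = 0.0115). On unscaled values it was -1.07 (adjusted p = 0.112). Ependymal markers were lower in glioma too (5 of 5, median change -2.38, summed level -0.44 to 0.98 against 3.05 to 3.49). So were those of mural cells and fibroblasts (6 of 7 without Cspg4, which progenitors share; median change -1.35, summed level 2.35 to 2.84 against 4.20 in both normal brains). The part of either in the Anxa1 result was not tested.

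Anxa2, whose product forms a tetramer with S100a10 and binds plasminogen and tissue plasminogen activator, did not differ beyond the spread of the gliomas. Its level was 1.87, 2.77 and 1.57 in the gliomas and 2.19 and 2.37 in the normal brains. Glioma 2 was above both normal brains, and gliomas 1 and 3 were below both. The change was -0.21 ± 0.38 SE (95% interval -1.19 to 0.76, limma adjusted p = 0.667), an interval that holds sizeable changes in either direction. The sign turned to 0.04 without glioma 3 and to 0.14 on unscaled values, and without glioma 2 the change was -0.56 (limma adjusted p = 0.0775).

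Anxa3, which encodes a member of the family found in phagocytic cells, had levels of -0.18, 0.20 and -0.98 in the gliomas and -0.80 and -0.67 in the normal brains. Gliomas 1 and 2 were above both normal brains and glioma 3 was below both. The change was 0.41 ± 0.37 SE (95% interval -0.53 to 1.35, limma adjusted p = 0.388). Without glioma 3 it was 0.74 and passed the test (limma adjusted p = 0.0336).

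Anxa4 encodes an annexin of epithelial and secretory cells that gathers on calcium-loaded membranes. Its level was -0.37, 0.03 and -0.42 in the gliomas and -0.85 and -0.69 in the normal brains, so all gliomas were above both normal brains. The change of 0.52 ± 0.19 SE (95% interval 0.02 to 1.01) missed the threshold after adjustment (limma adjusted p = 0.0768). On unscaled values it was 0.86 and passed (limma adjusted p = 0.0408).

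Anxa6 encodes the large annexin with a doubled core, a scaffold that brings p120 RasGAP and protein kinase C alpha to membranes. Its level was 4.60, 4.51 and 4.22 in the gliomas and 4.36 and 4.41 in the normal brains, with overlap. Its change of 0.06 ± 0.17 SE had the narrowest interval of the family, -0.37 to 0.49 (limma adjusted p = 0.785). The sign turned to -0.02 without glioma 1.

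**Figure D2:**
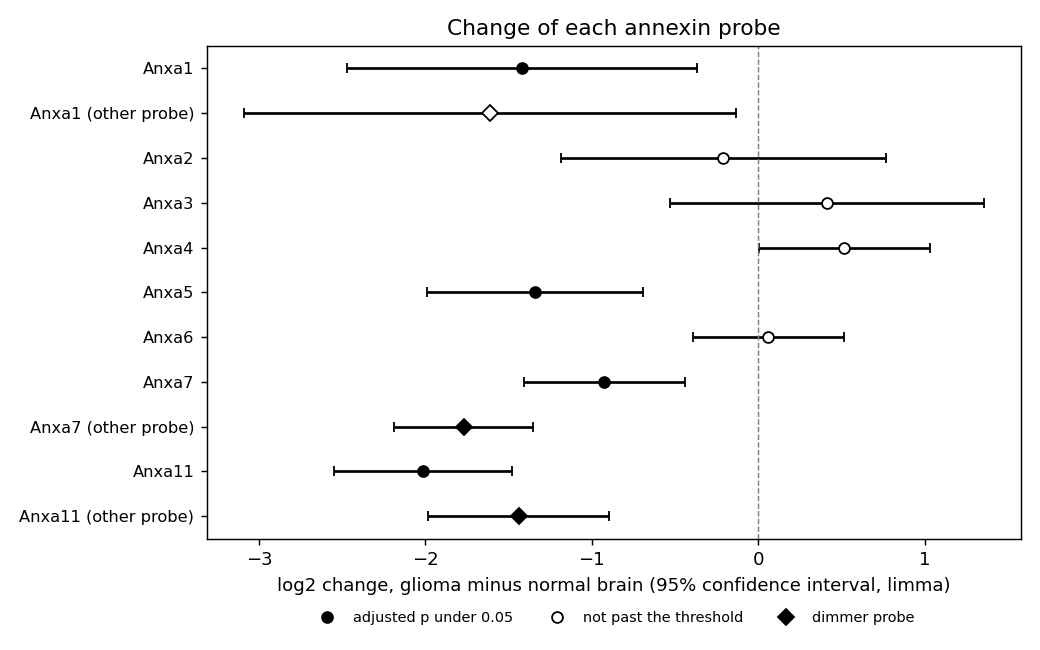
Change of each of the 11 annexin probes (glioma minus normal brain, log2) with its 95% interval from limma; circles are the brightest probe of a gene and diamonds the dimmer one, and filled symbols have an adjusted p under 0.05 over all probes. The 6 filled symbols, for Anxa1, Anxa5, Anxa7 and Anxa11, all lie to the left of 0.

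The 8 members have 11 probes in all, 2 each for Anxa1, Anxa7 and Anxa11 and 1 each for the others, and all 11 were tested. Of these, 6 were lower and none was higher in a fit with every probe apart (limma), in which 42.2% of 38679 probes were called, 20.7% as lower and 21.5% as higher. Both probes of a gene had the same direction in each case. The value of a change depends on the probe, as the pair for Anxa7 shows.

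The gliomas differed among themselves in part of the family. Glioma 2 had the highest level of Anxa1, Anxa2, Anxa3 and Anxa4, glioma 1 that of Anxa5, Anxa6 and Anxa7, and glioma 3 that of Anxa11 (glioma 2 had the highest level of 29.6% of all tested genes). Glioma 3 had the lowest level of 7 of 8 annexins and of 40.5% of all tested genes. The highest glioma exceeded the lowest by 2.16-fold for Anxa1, 2.30-fold for Anxa2 and 2.26-fold for Anxa3, an SD among gliomas above that of 85.3% to 86.3% of tested genes. The same ratio was 1.37-fold for Anxa4, 1.66-fold for Anxa5, 1.30-fold for Anxa6, 1.37-fold for Anxa7 and 1.44-fold for Anxa11.

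Markers of microglia and macrophages were spread over the gliomas in the same order as Anxa1, Anxa2, Anxa3 and Anxa4 at both ends. Of 8 such markers, 7 were highest in glioma 2 and 7 lowest in glioma 3, the exception in both cases being Itgam, whose detected probes gave changes of opposite sign (-1.82 to 0.46). The ratio of glioma 2 to glioma 3 was 3.39 for Cd68, a lysosomal protein of phagocytes, 3.34 for Cx3cr1, the fractalkine receptor, and 4.47 for P2ry12, a purine receptor of resting microglia. The summed level of these markers was 6.36 to 7.50 in glioma and 6.67 to 6.75 in normal brain. Between groups 2 of 8 were higher (C1qa by 2.03 and Cd68 by 1.87), 1 was lower (Itgam) and 5 were not called. This order was not particular to microglia and macrophages. Summed oligodendrocyte markers (5.93, 6.68 and 4.90 in gliomas 1 to 3), astrocyte markers (5.57, 5.84 and 5.34) and ependymal markers (0.46, 0.98 and -0.44) shared it. The summed levels of the remaining marker lists did not. The part of any of these cell types in the levels of Anxa1, Anxa2, Anxa3 and Anxa4 was not tested. Of the markers of neutrophils and of T cells, which also express annexins, 2 of 5 were tested in each list. In each list 2 others were not detected on enough arrays and 1 was not matched by name. Among neutrophil markers Mpo was higher (well above background on 3 of 3 gliomas and neither normal brain) and S100a9 was not called. The rise of Mpo was at least 14.0-fold for the mean of the gliomas, whose levels varied widely (0.66, -2.88 and -1.49 in gliomas 1 to 3). Among T cell markers Cd4 was lower and Cd3e was not called.

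**Figure D3:**
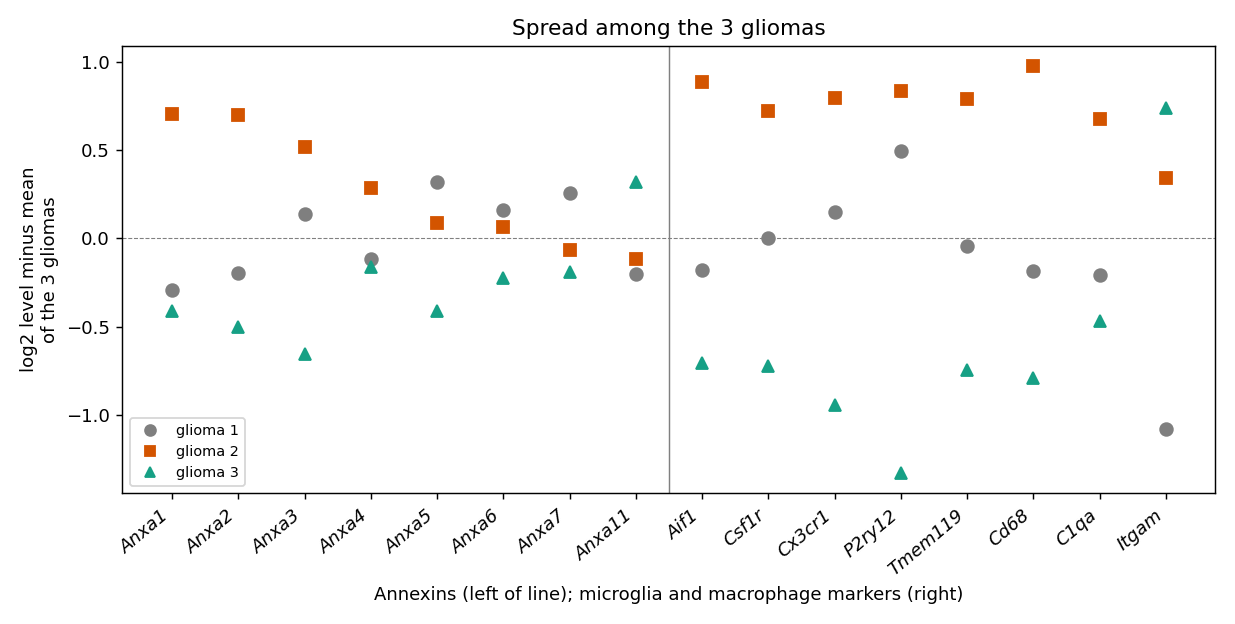
Level of each annexin (left of the line) and each microglia or macrophage marker (right) on the 3 glioma arrays, as the log2 difference from the mean of the gliomas. Glioma 2 is the highest for Anxa1 to Anxa4 and for 7 of 8 markers, and glioma 3 is the lowest for 7 of 8 annexins and 7 of 8 markers. Summed oligodendrocyte, astrocyte and ependymal markers, which are not drawn, were also highest in glioma 2 and lowest in glioma 3.

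The EF-hand proteins that bind annexins included 3 genes that were higher in glioma, none that was called lower and 5 that were not called, of 8 tested (median change 0.69, against -0.04 over all genes). S100a6, which encodes calcyclin, a partner of several annexins, had levels of 5.42, 5.24 and 4.69 in the gliomas and 2.70 and 2.96 in the normal brains, a change of 2.29 ± 0.26 (limma adjusted p = 0.00195). S100a4, a partner of annexin A2 linked to cell motility, rose by 1.52 ± 0.43 (limma adjusted p = 0.0333), and Sri, which encodes the sorcin that binds annexins A7 and A11, rose by 1.08 ± 0.18 (limma adjusted p = 0.00623). Sri thus rose where Anxa7 and Anxa11 fell. Pdcd6, which encodes ALG-2, changed by 0.47 ± 0.18 and was not called (limma adjusted p = 0.0797). Pef1, of the same list, changed by -0.67 ± 0.22 and was not called (limma adjusted p = 0.0558). Both are named after their values were seen. S100a10 and S100a11, the partners of annexins A2 and A1, are given here after their values were seen. S100a10 read 0.83, 1.13 and 0.70 in the gliomas against 1.23 and 1.19, a change of -0.33 ± 0.18 that was not called (limma adjusted p = 0.180). S100a11 read -0.00, 0.22 and -1.17 against -1.34 and -1.11, and its change of 0.90 ± 0.45 was not called (limma adjusted p = 0.151). Without either normal brain 1 gene of the list was higher, and without glioma 1 there was 1 lower.

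None of the 7 tested genes of the annexin A1 receptors and eicosanoid enzymes was called by limma (1 was higher and 1 lower at an unadjusted p under 0.05; median change 0.49). The 4 others, Fpr3, Fpr-rs3, Fpr-rs4 and Alox15, were not detected on enough arrays. The next genes are named after their values were seen. Fpr1, a formyl peptide receptor, was well above background on all 3 gliomas and on neither normal brain. Its levels were -4.88, -3.35 and -1.79 against -4.89 and -4.71, with overlap, and the change of 1.46 ± 0.89 (95% interval -0.83 to 3.75) did not pass the test (limma adjusted p = 0.226). Fpr2, the receptor best known for binding annexin A1, was well above background on 2 gliomas only. Ptgs1 and Ptgs2, the cyclooxygenases, changed by 1.02 ± 0.39 and -2.02 ± 0.68 (limma adjusted p = 0.0808 and 0.0575), so neither passed. Without glioma 1, 3 genes of the list were called higher and 1 lower, and without glioma 3, 1 was higher.

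In the plasminogen system, for which the annexin A2 tetramer is a binding site, 5 of 7 tested genes were higher in glioma and none was lower. Of all tested genes 24% were called higher. The median change of the list was 1.06, which is the value of Plg. The inhibitor Serpine2 had levels of 4.57, 4.22 and 4.90 in the gliomas and 1.38 and 1.30 in the normal brains, a rise of 3.22 ± 0.23 (limma adjusted p = 0.000634). Plat, tissue plasminogen activator, rose by 1.59 ± 0.16 (limma adjusted p = 0.00127). Plg, plasminogen itself, changed by 1.06 ± 0.42 and Serpinf2 by 0.04 ± 1.38, neither past the threshold (limma adjusted p = 0.0886 and 0.984). Both were well above background on 2 gliomas and on neither normal brain, so background limits their changes and the median. Plau was not detected on enough arrays. Without either normal brain the count of higher genes was 2. Plat and Serpine2 rose while neither Anxa2 nor S100a10 was called.

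Genes of membrane repair and trafficking went both ways. Of 12 tested, 2 were higher, 5 lower and 5 not called (median change -0.09). Cavin1, a coat protein of caveolae, was lower by -1.56 ± 0.22, Dysf, the repair ferlin that binds annexins A1 and A2, by -1.48 ± 0.15, and Capn1, a calcium-activated protease, by -1.30 ± 0.14 (limma adjusted p = 0.00370, 0.00126 and 0.00155). Cav1, the main caveolar protein, was higher by 1.42 ± 0.20 and Vps4b, an ESCRT ATPase, by 0.42 ± 0.13 (limma adjusted p = 0.00383 and 0.0451). Cav1 and Cavin1, which act in the same structure, thus had opposite directions. On unscaled values, and without either normal brain, 3 genes of this list were lower. Without glioma 2 or either normal brain 1 was higher.

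Of 14 genes of phosphatidylserine exposure and recognition, the lipid that annexin A5 binds, 5 were higher, 3 lower and 6 not called (median change 0.01). The receptor kinase Tyro3 had levels of 2.96, 3.22 and 3.00 in the gliomas and 5.29 and 5.38 in the normal brains, a fall of 2.27 with an SE of 0.15 (limma adjusted p = 0.000547). Mfge8 and Gas6, which bridge phosphatidylserine to receptors, were lower by -0.80 ± 0.19 and -0.78 ± 0.25 (limma adjusted p = 0.0211 and 0.0493). Plscr1, a phospholipid scramblase, Pros1, a further bridging ligand, and Ano6, a calcium-activated scramblase, rose by 1.62 ± 0.40, 1.50 ± 0.32 and 0.97 ± 0.21 (limma adjusted p = 0.0227, 0.0147 and 0.0157). The count of higher genes was 2 without glioma 2, 3 without glioma 1 and 0 without either normal brain. That of lower genes was 1 without either normal brain and on unscaled values.

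Among the partners of annexin A6, Prkca and Hras were lower (-1.72 ± 0.37 and -1.70 ± 0.20, limma adjusted p = 0.0144 and 0.00210), and Rasa1, which encodes p120 RasGAP, was not called (0.24 ± 0.16, limma adjusted p = 0.246). Prkca and Hras thus fell where Anxa6 was not called. Without either normal brain 1 gene of the list was lower.

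The remaining mouse annexins on the array were dim. Anxa8, which encodes an annexin of stratified epithelia, had levels of -4.04, -3.92 and -3.83 in the gliomas and -3.50 and -2.90 in the normal brains, a change of -0.73 ± 0.22 (limma adjusted p = 0.0424). This call was lost on unscaled values (-0.38, adjusted p = 0.240 in limma), after quantile normalisation (-0.71, 0.0513), with the 75th percentile taken over probes well above background on all arrays (-0.67, 0.0534), and without any one of glioma 1, glioma 2, glioma 3 or normal brain 2 (-0.78 to -0.43). A second Anxa8 probe, printed on 10 spots, read -6.19, -4.75 and -6.21 in the gliomas and -2.17 and -1.16 in the normal brains. It gave a 16.6-fold lower value (-4.05 ± 0.57, limma adjusted p = 0.00482 over all probes) and was not well above background on gliomas 1 and 3. Anxa9 read -2.66, -2.24 and -3.23 against -3.53 and -3.33 and was not called (0.72 ± 0.32, limma adjusted p = 0.113). Without glioma 3 its change was 0.98 and passed the test (limma adjusted p = 0.0220), and with normexp background correction it was 0.22. Anxa10 was well above background on no array and Anxa13 on 1, and neither was tested.

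The genes with the profile most like each member were found over the 5 arrays among 14139 genes, by the Euclidean distance between log2 profiles centred on their means. Among those of Anxa11 was Rgs11, a regulator of G-protein signalling, at 0.11. Those of Anxa7 were Tie1, an endothelial receptor, at 0.03 and the proteasome subunit gene Psmc5 at 0.04. For Anxa5 they were Ndufaf3 at 0.14 and Scnn1a at 0.15, and for Anxa1 the tetraspanin gene Cd82 at 0.34 and Speer4cos at 0.36, the farthest of the family. Those of Anxa2 were Slco2b1, an organic anion transporter, at 0.15 and the lysosomal protease gene Ctsb at 0.16. For Anxa3 they were Rps6ka1 at 0.04 and Nudt1 at 0.09, for Anxa4 Pi4kb at 0.10 and Rimbp3 at 0.11, and for Anxa6 Atpaf2 at 0.03 and Dpm2 at 0.04. With 5 arrays in 2 groups, many genes share a profile this simple.

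Anxa11 was called lower in each of 13 alternatives of processing and of arrays left out, with changes from -2.17 to -1.67. Anxa5 was called in 11, Anxa7 in 10, Anxa1 in 8, Anxa3 in 2, Anxa4 in 1 and Anxa2 and Anxa6 in none. Without scaling between arrays the median change of all genes was 0.31 and 63.8% of called genes were higher, against 46.5% with scaling. On those values 2 annexins, Anxa5 and Anxa11, were lower and 1, Anxa4, was higher. Without glioma 3 Anxa3 was called higher. The count of lower annexins was 1 without either normal brain, when 4605 or 4617 genes in all were called in place of 8696.

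**Figure D4:**
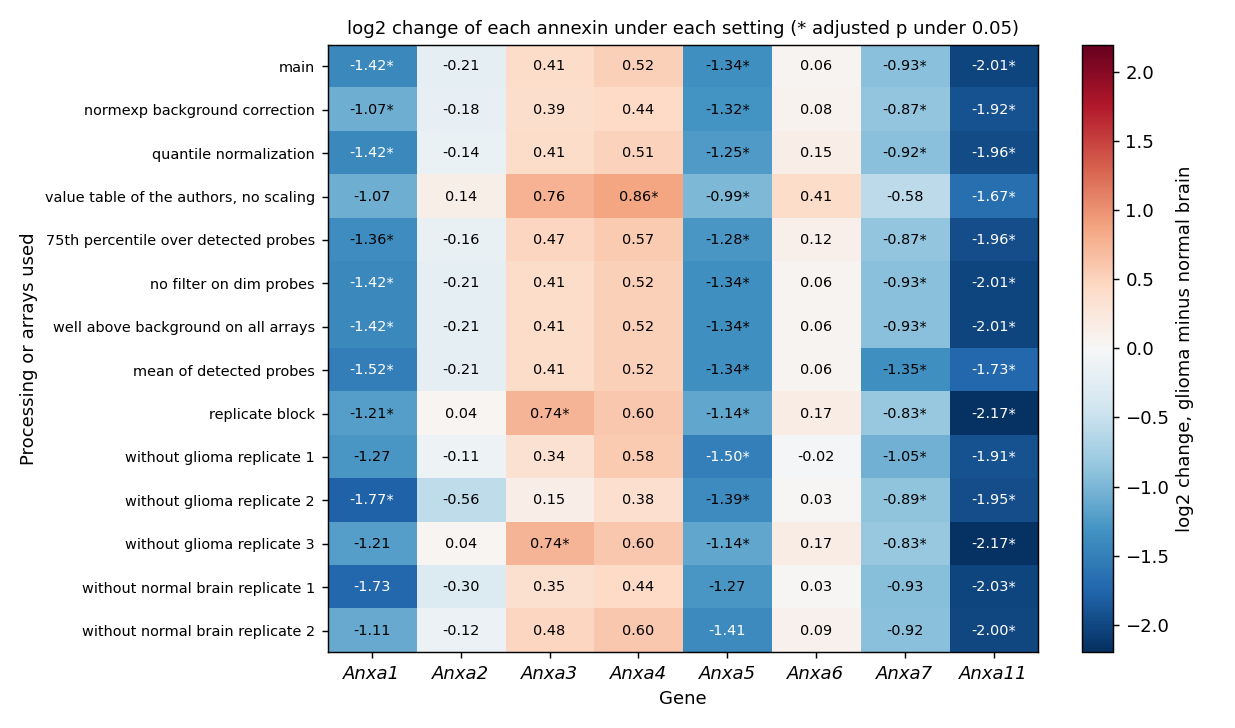
Change of each annexin (columns; glioma minus normal brain, log2) under each processing setting or set of arrays (rows), with an asterisk for an adjusted p under 0.05 in limma. Anxa11 has an asterisk in every row, Anxa1, Anxa5 and Anxa7 lose theirs in some, and Anxa2 and Anxa6 have none.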

How the data were processed

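The deposited scanner files hold intensity values for each spot, made by the authors in Feature Extraction of Agilent (version 10.7.3.1, per the submitters' processing notes). The authors' value table holds log2 values, which were checked against the processed signal. For probes printed on a single spot they matched its log2 within 0.05. Well-above-background flags are those of the authors' files, per the file headers. Array depth is given as signal: the 75th percentile of the processed signal was 784.8, 902.9 and 755.8 for gliomas 1 to 3 and 633.8 and 643.7 for the normal brains. Control spots and 23 probes with outlier flags on all spots of an array were left out, and spots of a probe were averaged. A probe was detected where more than 50% of its spots were well above background. Of 29787 probes with a RefSeq accession, 28019 were named through the supplied RefSeq table.

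Each gene was represented by its brightest probe and tested if detected on at least 2 arrays, with a two-sided test of limma 3.58.1 (eBayes after lmFit, run in R 4.3.3), and p-values were adjusted over all genes by Benjamini-Hochberg with a threshold of 0.05. No exact permutation test of 3 against 2 arrays can go below 0.1. The packages data.table at version 1.17.8 and pandas at version 2.3.3 made the tables, and matplotlib 3.10.9 in Python 3.11.15 the figures. The fit was tested on simulated data. Alternatives were normexp with an offset of 50 (on median foreground and background signals, since the files used have no mean signal), quantile or no scaling, another percentile base, other filters, the mean of probes, a replicate block and each array left out. The lower bound for Mpo sets each normal brain array to the higher of its lowest signal well above background and the gene's own signal.

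Members and lists were chosen with earlier results of these data known. Named genes are all annexins, up to 3 called genes with the largest change in each direction per list, the uncalled genes of a list where 3 or fewer, and the 2 nearest profiles of each member. Some genes covered by this rule are left unreported. Ptrf, an older name of Cavin1, was not counted.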

Additional observations from a re-analysis of the deposited data

How the results depend on the processing

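Across the alternatives, the total of called genes was 7706 to 9960 in all but those without a normal brain array. Leaving out each array in turn gave 4605 to 9375 called genes, 1 to 4 lower and 0 to 1 higher annexins, and changes of -1.77 to -1.11 for Anxa1, -0.56 to 0.039 for Anxa2, 0.15 to 0.74 for Anxa3, -1.50 to -1.14 for Anxa5, -0.019 to 0.17 for Anxa6 and -1.05 to -0.83 for Anxa7. For the lists it gave 0 to 1 higher and 0 to 1 lower of the other annexins, 1 to 4 higher and 0 to 1 lower EF-hand genes, 0 to 3 higher and 0 to 1 lower receptor and eicosanoid genes, 2 to 5 higher plasminogen genes, 1 to 2 higher and 3 to 5 lower repair genes, 0 to 5 higher and 1 to 3 lower phosphatidylserine genes, and 0 to 1 higher and 1 to 2 lower annexin A6 partners. A fit without either normal brain array assumes that the lone array varies like the gliomas.

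On unscaled values Anxa1 was at -1.07, Anxa2 at 0.14, Anxa4 at 0.86 and Anxa7 at -0.58, 2 annexins were lower and 1 was higher, 0 other annexins, 3 repair genes and 1 phosphatidylserine gene were lower, and 2 annexin A6 partners were higher. Under normexp 1 receptor and eicosanoid gene was lower, and under quantile normalisation 0 other annexins were lower; the cause was not tested. The labels do not say whether a replicate number is shared between groups. Correlations of deviations between samples of the same number were 0.01 and 0.05, which cannot show whether the samples were paired. With the replicate block, which leaves glioma 3 without a partner and so without weight in the change, Anxa2 was at 0.039, Anxa3 at 0.74 and called, Anxa9 at 0.98 and called, and 1 annexin was higher, with 8314 called genes in all. Detection limits Anxa8 and the dimmer probes of Anxa1 and Anxa11, whose signals were 8.90 to 62.9 for the latter pair.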
